A study of Mus musculus with 12 samples.

Results

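The paraoxonase family of the mouse has 3 genes, Pon1, Pon2 and Pon3, and their transcripts were followed here in alveolar type II (AT2) cells, the surfactant-producing progenitor cells of the alveolus. The 3 genes were matched by symbol among the 21878 genes of a table of FPKM (fragments per kilobase of transcript scaled to the number of mapped fragments), and all 3 passed the filter on low values that 10675 genes passed, which asked for 3 or more libraries reaching an FPKM of 1. Pon1 was chosen from its low level in BLM-treated AT2 cells of Atg5f/f mice in these data, so that contrast is described below without a test, and Pon2 and Pon3 were taken as the other members of its family.

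The 12 RNA-seq libraries fell into 4 groups of 3, all from C57BL/6 mice carrying floxed alleles of Atg5, a gene needed to form autophagosomes. AT2-PBS and AT2-BLM cells came from Atg5f/f mice without Cre, which the labels call wild type, after PBS or bleomycin (BLM, an agent that breaks DNA and injures the alveolar epithelium). Atg5-/- AT2-PBS and Atg5-/- AT2-BLM cells came from Nkx2.1Cre;Atg5f/f mice given the same 2 treatments, in which Cre follows Nkx2.1 and so acts across the lung epithelium and not in AT2 cells alone. According to the methods, BLM was given into the trachea at 2 U/kg to male mice of 8 to 12 weeks, cells were collected on day 14 (the day of the Atg5-/- AT2-PBS cells is not given in the sources used here), and AT2 cells were sorted as negative for CD31, CD34, CD45, CD24 and Sca-1 and positive for EpCAM. The comparisons ask how AT2 cells responded to BLM and how loss of Atg5 altered them. The labels call the libraries of a group biological replicates without saying which animals they came from, so a p-value measures the spread between these libraries.

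Paraoxonases are calcium-dependent enzymes that open lactone rings and, in part, split esters. Pon1, named for its hydrolysis of paraoxon, the active form of the insecticide parathion, is made mainly by the liver and circulates on high-density lipoprotein (HDL), where it slows the oxidation of lipids. Pon3 has a strong preference for lactones. Pon2 stays inside cells, is made in many tissues, lowers oxidative stress at mitochondria and the endoplasmic reticulum, and cleaves the lactone signals of Pseudomonas. In the lung, paraoxonase protein has been described in club cells, the secretory cells of the airway, as well as in alveoli.

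The libraries differed in transcripts of other cells before any result on the family. All 9 AT2 markers with a usable value (Sftpb, Sftpa1, Sftpd, Abca3, Lamp3, Slc34a2, Napsa, Etv5 and Lpcat1) had a mean FPKM of at least 1 in every group, and their sum lay between 23915 and 41359 FPKM in every library. Sftpc, the defining AT2 gene, was listed at 0 in 11 of the 12 libraries and at 112570 FPKM in the other, and was left out. The 3 Atg5-/- AT2-PBS libraries stood apart. They held the highest sums of 12 hepatocyte markers (1931 to 3287 FPKM, against 169 to 1183 in Atg5-/- AT2-BLM), of 6 club cell markers (25485 to 85426, against 1367 to 2210), of 6 leukocyte markers (279.6 to 409, against 26.5 to 109), of 8 macrophage markers (417 to 435, against 23.7 to 74.6) and of 6 fibroblast markers (89.7 to 101, against 5.25 to 15.3). Atg5 itself spanned 6.01 to 12.5 FPKM in AT2-PBS and 6.72 to 10.1 FPKM in Atg5-/- AT2-PBS, which overlapped. After BLM it spanned 9.97 to 11.1 FPKM in AT2-BLM and 8.37 to 8.84 FPKM in Atg5-/- AT2-BLM. Cre removes only part of the gene and the value covers the whole transcript, so the labelled knockout could not be checked with it. The reason for these levels was not tested.

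The 3 genes lie side by side on chromosome 6, all on the minus strand, with Pon3 between the other two. In the NCBIM37 build (mm9, the build of the deposited values) Pon1 (ENSMUSG00000002588.5) spans chr6:5118090-5143946, Pon3 (ENSMUSG00000029759.2) spans chr6:5170852-5206286 and Pon2 (ENSMUSG00000032667.10) spans chr6:5214147-5248455. Only 7860 bases separate Pon3 from Pon2, whereas 26905 separate Pon1 from Pon3, and Ppp1r9a, transcribed from the opposite strand, ends 2428 bases from Pon1. The genes nevertheless have unlike promoters. The 250 bases before each RefSeq transcription start (build GRCm38.p6, minus strand, read 5′ to 3′ toward the start) are shown because the 3 genes, although adjacent, differed in level and in their change with BLM. Pon1 lies at chr6:5193947-5194196, Pon3 at chr6:5256234-5256483 and Pon2 at chr6:5298341-5298590 of that build. Capitals mark matches, on either strand, to 5 short motifs: CCAAT (the CCAAT box), GGGCGG (the GC box bound by Sp1), TGANTCA (AP-1), GCGTG (the core bound by the aryl hydrocarbon receptor) and TATAAA (the TATA box).
Pon1: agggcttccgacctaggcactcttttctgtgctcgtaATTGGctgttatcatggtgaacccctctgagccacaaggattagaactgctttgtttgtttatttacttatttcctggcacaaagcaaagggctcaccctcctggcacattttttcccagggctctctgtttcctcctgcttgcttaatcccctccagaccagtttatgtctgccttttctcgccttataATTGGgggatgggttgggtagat
Pon3: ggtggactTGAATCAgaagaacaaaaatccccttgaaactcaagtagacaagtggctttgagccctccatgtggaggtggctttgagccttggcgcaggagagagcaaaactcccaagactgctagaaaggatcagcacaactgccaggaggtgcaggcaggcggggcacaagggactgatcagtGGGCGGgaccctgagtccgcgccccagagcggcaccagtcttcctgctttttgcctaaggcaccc
Pon2: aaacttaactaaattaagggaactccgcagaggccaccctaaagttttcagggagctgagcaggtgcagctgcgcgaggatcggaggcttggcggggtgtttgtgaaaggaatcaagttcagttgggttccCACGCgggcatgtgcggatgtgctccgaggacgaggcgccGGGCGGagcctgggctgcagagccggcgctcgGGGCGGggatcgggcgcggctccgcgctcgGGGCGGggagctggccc

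The Pon2 window was the most GC-rich, with 65.6% G or C and 24 CG pairs, more CG pairs than 88.02% of the windows of the same length before all 32851 RefSeq starts listed. The Pon3 window had 56.8% G or C and 6 CG pairs, which equals the median of all windows, and the Pon1 window 47.6% and 3, with 29.0% of windows holding fewer. Pon2 had 3 GC boxes (beginning at -79, -47 and -17 from the start) and Pon3 had 1 (at -65), while Pon1 had none of these letters; 32.7% of all windows hold the motif. Pon1 had 2 CCAAT boxes, read on the other strand as ATTGG, at -213 and -23, a motif found in 33.8% of windows and in neither other member. The AP-1 pattern TGANTCA, which accepts any middle base, matched once, as TGAATCA in Pon3 at -242 (6.75% of windows). The aryl hydrocarbon receptor core matched once, in Pon2 at -119 (28.2%). TATAAA matched in none of the 3 and in 12.4% of windows. These matches describe letters only and carry no statement on what binds there.

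In uninjured AT2 cells of Atg5f/f mice all 3 genes were well expressed. Pon3 had the highest level, with 159, 144 and 207 FPKM in AT2-PBS replicates 1, 2 and 3 (170 ± 33.0, SD, n = 3), above all but 3.24% of the genes tested. Pon2 followed with 87.1, 79.3 and 83.8 FPKM (83.4 ± 3.89), the tightest group of values in the family, and 6.64% of genes stood above it. Pon1 read 39.6, 84.9 and 46.0 FPKM (56.8 ± 24.5), with 9.51% of genes above it, and replicate 2 was the high sample. Every AT2-PBS library ranked Pon3 first, and replicate 2 was the single one of the 12 libraries in which Pon1 exceeded Pon2.

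**Figure D1:**
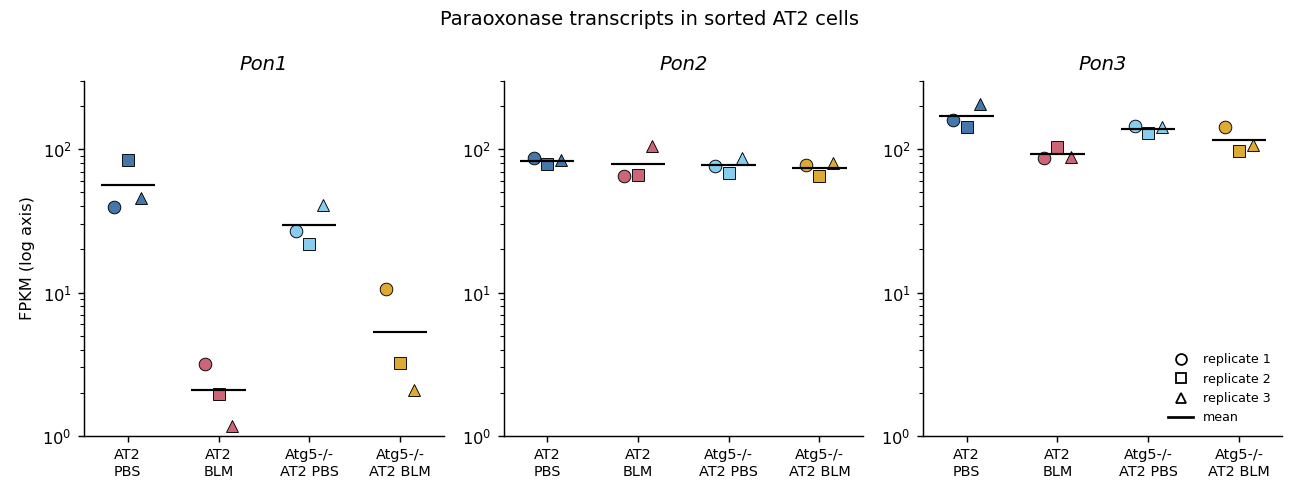
FPKM (log axis) of Pon1, Pon2 and Pon3 in each of the 12 libraries by group, with circles, squares and triangles for replicates 1, 2 and 3 and a line at the mean. Pon1 lies between 21.7 and 84.9 in the 6 PBS libraries and between 1.16 and 10.7 in the 6 BLM libraries, whereas Pon2 stays between 64.9 and 106 in all 12.

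Pon1 was nearly lost from AT2-BLM cells, the contrast it was chosen on. It read 3.18, 1.97 and 1.16 FPKM in AT2-BLM replicates 1, 2 and 3 (2.10 ± 1.01, n = 3), so the highest injured library lay far under the lowest PBS library at 39.6. The ratio of the means was 27.0-fold, and the change was -4.19 on the log2 scale of FPKM + 1, with no gene among the 10675 more negative. Of all genes, 7.77% were called lower, 20.6% were called higher and 40.2% had groups that did not overlap in this contrast, a call being an unadjusted p under 0.05 with a fold of at least 1.4. Nothing is read from these shares for Pon1, which the contrast selected. Pon3, at 87.2, 104 and 87.98 FPKM (93.1 ± 9.58), was also lower than in every AT2-PBS library, by 1.83-fold (log2 change -0.85). Pon2, at 64.9, 66.1 and 106 FPKM (78.8 ± 23.1), overlapped its AT2-PBS values, with a log2 change of -0.12.

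The Atg5-/- libraries are not part of that contrast, and there Pon1 was tested. Since results of all 4 groups were known when it was chosen, its p there is not that of a gene picked without sight of the data. Pon1 was chosen for a fall with BLM, so its p-values there describe the fit and are no independent support for the fall. It read 26.9, 21.7 and 40.6 FPKM in Atg5-/- AT2-PBS replicates 1, 2 and 3 (29.7 ± 9.76, n = 3) and 10.7, 3.22 and 2.07 FPKM in Atg5-/- AT2-BLM replicates 1, 2 and 3 (5.32 ± 4.66, n = 3). The lowest PBS library was above the highest BLM library, and replicate 1 of the BLM group was well above the other two. Pon1 fell in Atg5-/- AT2-BLM, with 5.59-fold lower mean FPKM and a log2 change of -2.48 (SE 0.46, 95% CI -3.48 to -1.48; limma adjusted p = 0.00517 over all genes tested). In this contrast 10.7% of all genes were called lower and 7.66% higher, 24.9% had groups that did not overlap, and 117 genes had a more negative change than Pon1. The median change of all genes was 0.06, and the change of Pon1 relative to that median was -2.54. A fit of the 6 Atg5-/- libraries alone gave an adjusted p of 0.0168 by limma, and without Atg5-/- AT2-BLM replicate 1 the change was -3.05.

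Pon2 and Pon3 did not pass the test in the same libraries. Pon2, the intracellular member, read 76.5, 68.8 and 86.6 FPKM in Atg5-/- AT2-PBS (77.3 ± 8.97) and 78.2, 64.9 and 80.5 FPKM in Atg5-/- AT2-BLM (74.5 ± 8.41). Its groups overlapped and its log2 change was -0.05 (95% CI -0.45 to 0.35; limma adjusted p = 0.922). Pon3 read 145, 131 and 142 FPKM (139 ± 7.61) and then 143, 97.2 and 108 FPKM (116 ± 23.8). Replicate 1 of the BLM group, which was also the high one for Pon1, sat within the PBS values, so the groups overlapped, with a log2 change of -0.28 (95% CI -0.66 to 0.10; limma adjusted p = 0.397). The interval for Pon3 holds a fall of the size of 1.4-fold as well as no change.

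**Figure D2:**
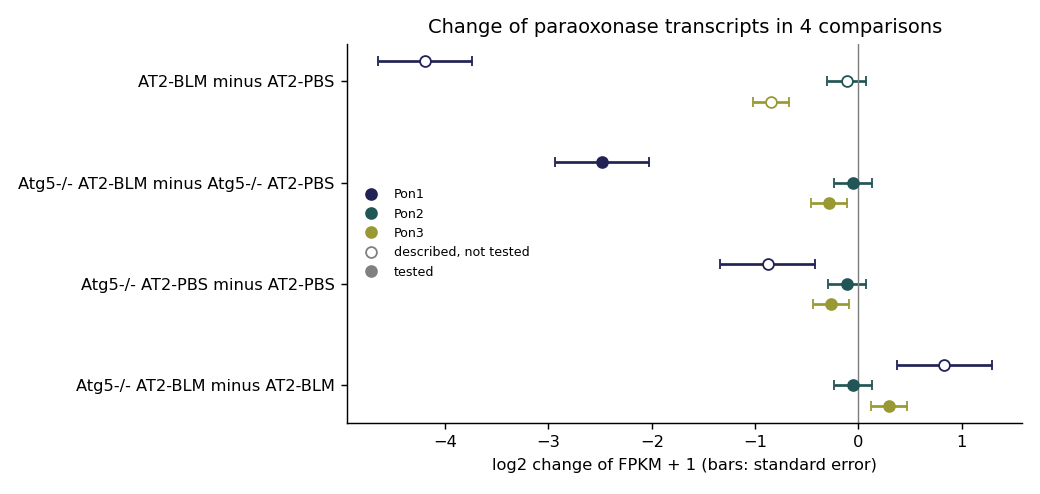
log2 change of FPKM + 1 of each member in the 4 comparisons, with the standard error of the fit as bars, filled points for tested changes and open points for those described without a test. Pon1 is at -4.19 and -2.48 in the BLM comparisons, while Pon2 lies between -0.12 and -0.05 in all 4.

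The 2 comparisons between genotypes use the same groups as the comparisons with BLM, so their values are not independent of those above. With PBS, Pon1 averaged 1.91-fold less in Atg5-/- AT2-PBS than in AT2-PBS (log2 change -0.88), but the highest Atg5-/- value, 40.6 FPKM, was above the lowest AT2-PBS value, 39.6 FPKM. After BLM, the order turned, and Pon1 averaged 2.53-fold more in Atg5-/- AT2-BLM than in AT2-BLM (log2 change 0.83), again with overlap. That value leaned on Atg5-/- AT2-BLM replicate 1, without which it was 0.27. Because both comparisons hold values that chose Pon1, neither was tested for it, nor was the difference between its change with BLM in Atg5f/f and in Atg5-/- cells.

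For Pon2 and Pon3 the differences between genotypes were tested and none passed. With PBS, Pon2 differed by -0.11 (95% CI -0.52 to 0.29; limma adjusted p = 0.781) and Pon3 by -0.27 (95% CI -0.65 to 0.11; limma adjusted p = 0.414), where 5.16% of all genes were called lower, 14.1% were called higher and 28.9% had groups that did not overlap. After BLM, Pon2 differed by -0.05 (95% CI -0.45 to 0.35; limma adjusted p = 0.965) and Pon3 by 0.30 (95% CI -0.08 to 0.68; limma adjusted p = 0.705), where 3.12% were called lower, 2.04% higher and 13.4% did not overlap. The groups overlapped for both genes in both comparisons.

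The order of the groups differed between the members. For Pon1, the means ran from AT2-PBS through Atg5-/- AT2-PBS and Atg5-/- AT2-BLM to AT2-BLM, and the ranges of the first pair and of the last pair overlapped while every PBS library was above every BLM library. The share of tested genes above Pon1 went from 9.51% and 17.1% in the 2 PBS groups to 52.0% in Atg5-/- AT2-BLM and 74.0% in AT2-BLM. For Pon3 the same order held with smaller steps, each pair of neighbours overlapped, and it stayed among the higher genes throughout, with at most 7.02% of genes above it. For Pon2 all 4 groups overlapped, and between 6.64% and 8.20% of genes stood above it.

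The make-up of the family shifted accordingly. The summed FPKM of the 3 genes was 310 ± 25.4 in AT2-PBS, 246 ± 24.2 in Atg5-/- AT2-PBS, 196 ± 33.5 in Atg5-/- AT2-BLM and 174 ± 19.8 in AT2-BLM (n = 3 each). Pon1 supplied 13.7 to 27.6% of that sum in AT2-PBS and 9.80 to 15.1% in Atg5-/- AT2-PBS, but 1.09 to 4.60% in Atg5-/- AT2-BLM and 0.597 to 2.05% in AT2-BLM. Ratios within a library do not depend on how libraries were scaled. In Atg5-/- cells the log2 ratio of Pon1 to Pon2 differed by -2.74 between BLM and PBS libraries, and that of Pon1 to Pon3 differed by -2.51. Every BLM library lay below every PBS library for both ratios (two-sided exact permutation p = 0.1 each, the smallest that 3 against 3 allows). The log2 ratio of Pon3 to Pon2 differed by -0.23 in the same comparison (exact permutation p = 0.2), by -0.16 between genotypes with PBS (exact permutation p = 0.6) and by 0.35 between genotypes after BLM (exact permutation p = 0.5).

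**Figure D3:**
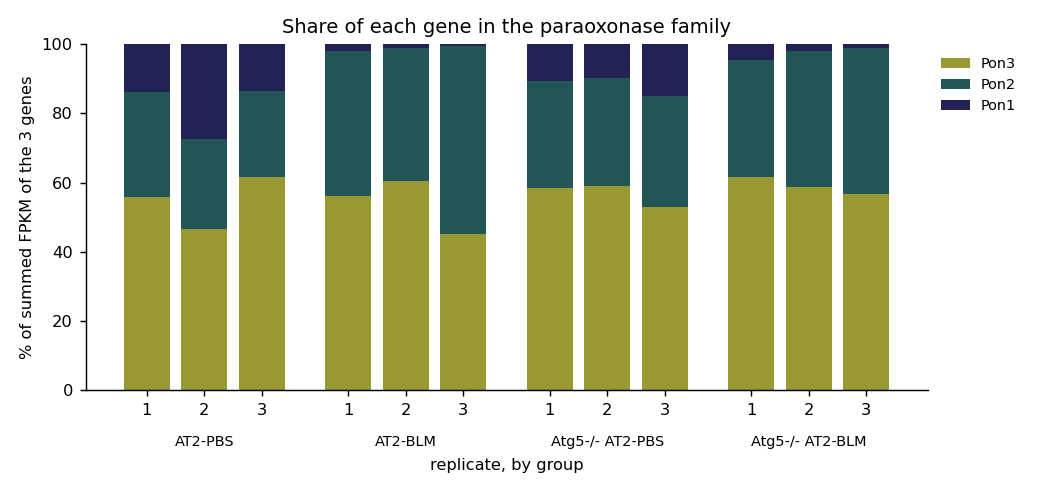
Share of Pon1, Pon2 and Pon3 in the summed FPKM of the 3 genes, in percent, for each library by group. The Pon1 share is 9.80 to 27.6% in the 6 PBS libraries and 0.597 to 4.60% in the 6 BLM libraries.

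Marker levels of other cells that can make or carry paraoxonases were set beside the values of Pon1. Hepatocyte markers summed to 503, 7.04 and 3.84 FPKM in AT2-PBS replicates 1, 2 and 3, and the library with the highest Pon1 of all 12, replicate 2 at 84.9 FPKM, had Alb at 1.14 FPKM. The 3 AT2-BLM libraries had hepatocyte sums of 268 to 780 FPKM with Pon1 at no more than 3.18. In Atg5-/- cells the hepatocyte, leukocyte, macrophage and fibroblast sums were lower in every BLM library than in any PBS library, as Pon1 was, and their part in its change there was not tested. The sum of AT1 cell markers (8 genes) went the other way, at 1713 to 2023 FPKM with PBS and 2537 to 2908 with BLM in Atg5-/- cells, while in Atg5f/f cells its ranges overlapped (2269 to 2690 and 2606 to 3886). The sum of club cell markers was lower with BLM in every Atg5-/- library. In Atg5f/f cells it was 4998 to 11930 FPKM in AT2-PBS and 925 to 5031 in AT2-BLM, so that replicate 3 of each group overlapped. All 6 markers had a mean of at least 1 FPKM in every group. Scgb1a1 supplied most of the sum, at 4776 and 4921 FPKM in replicate 3 of AT2-PBS and AT2-BLM. Cyp2f2 was lower in every BLM library (at most 104 FPKM) than in any PBS library (at least 133). Scgb3a2 overlapped in Atg5f/f cells, as Scgb1a1 did. Within PBS, the sum was higher in every Atg5-/- library (25485 to 85426) than in any Atg5f/f library. Pon1 averaged 29.7 FPKM in Atg5-/- AT2-PBS and 56.8 in AT2-PBS, with overlap (21.7 to 40.6 and 39.6 to 84.9 FPKM). The same Atg5-/- libraries also held the highest hepatocyte, leukocyte, macrophage and fibroblast sums. The 6 ciliated cell markers were low throughout, with sums of 24.5 to 39.6 FPKM in AT2-PBS and 9.34 to 13.7 in AT2-BLM. Their sums were 20.6 to 41.2 FPKM in Atg5-/- AT2-PBS and 14.5 to 20.2 in Atg5-/- AT2-BLM. Every PBS library thus had a higher ciliated sum than any BLM library, as was the case for Pon1. Only 2 of the 6 ciliated markers had a mean of at least 1 FPKM in each group. In bulk cells, fewer cells that make a transcript and less of it per cell cannot be told apart, and the part of airway cell RNA in the Pon1 values was not tested.

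**Figure D4:**
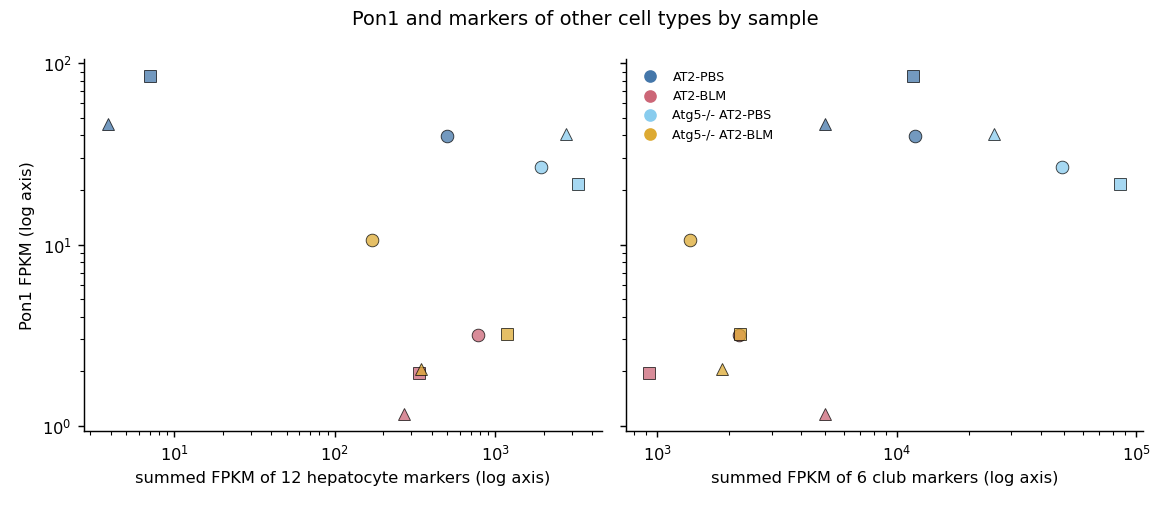
Pon1 FPKM against the summed FPKM of 12 hepatocyte markers (left) and 6 club cell markers (right) in each library, all axes logarithmic, coloured by group with circles, squares and triangles for replicates 1, 2 and 3. AT2-PBS replicate 2 combines the highest Pon1 (84.9) with a hepatocyte sum of 7.04, and the 3 Atg5-/- AT2-PBS libraries have the highest sums of both marker lists.

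Genes on either side of the cluster were followed to set the change of Pon1 beside that of its surroundings. Of 8 neighbouring genes, 5 passed the filter, 0 were called higher and 1 lower with BLM in Atg5-/- cells (all genes 7.66% and 10.7%), and their median change was -0.03 against 0.06 over all genes. The one was Pdk4, a kinase that shuts pyruvate out of the citric acid cycle, which fell from 2.97 ± 0.76 to 0.392 ± 0.26 FPKM (log2 change -1.51, limma adjusted p = 0.0169) and lies beyond Pon2. Ppp1r9a, the closest gene to Pon1 and a scaffold of the actin cytoskeleton, had 3.37 ± 1.02 and 3.23 ± 0.32 FPKM (log2 change -0.02, limma adjusted p = 0.969). In Atg5f/f cells, 3 of the 5 were called lower and 1 higher (all genes 7.77% and 20.6%), with a median of -0.56 against 0.17, and Ppp1r9a had 4.89 ± 0.85 FPKM in AT2-PBS and 1.78 ± 0.22 in AT2-BLM (log2 change -1.08). Sgce and Casd1, on the same side of Pon1, had log2 changes of -0.56 and -0.85. Between genotypes, 0 were called higher and 2 lower with PBS (median -0.45) and 1 higher and 0 lower after BLM (median -0.13), against 14.1% and 5.16%, and 2.04% and 3.12%, of all genes.

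**Figure D5:**
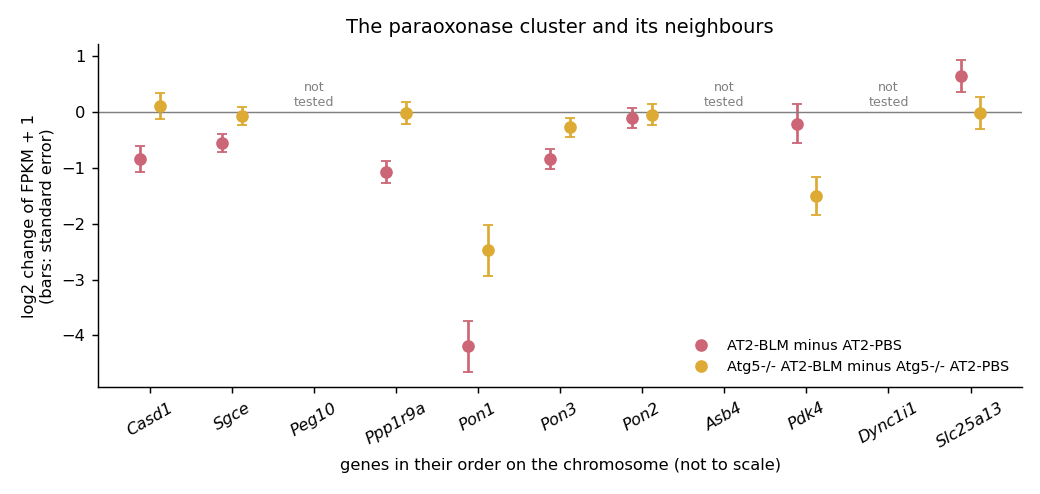
log2 change of FPKM + 1 with BLM for the 3 paraoxonase genes and 8 neighbours in chromosomal order (spacing not to scale), in Atg5f/f cells and in Atg5-/- cells, with standard errors as bars. Pon1 is the lowest point in both genotypes (-4.19 and -2.48), while Ppp1r9a beside it is at -1.08 and -0.02.

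Other ester hydrolases, the carboxylesterases and their relatives, were the functional neighbours of the family. Of 21 listed, 8 passed the filter, and in Atg5-/- cells 0 rose and 8 fell with BLM (median -1.36), where 7.66% of all genes were called higher and 10.7% lower. The most abundant of them, Ces1d, a carboxylesterase of lung and liver that hydrolyses triglycerides, separated the PBS from the BLM libraries as Pon1 did. It read 636, 614 and 775 FPKM in AT2-PBS and 657, 610 and 778 in Atg5-/- AT2-PBS, and 376, 336 and 294 in AT2-BLM and 521, 293 and 337 in Atg5-/- AT2-BLM. It fell with BLM in Atg5-/- cells (log2 change -0.87, limma adjusted p = 0.0235), its log2 change in Atg5f/f cells was -1.01, and no BLM library reached a PBS library. Of all genes, 24.9% had BLM and PBS groups that did not overlap in Atg5-/- cells, and 40.2% in Atg5f/f cells. Ces3a (-1.98), Ces1f (-1.94), Ces1c (-1.90) and Ces2a (-1.41), which are enzymes of the liver, fell most in Atg5-/- cells. Their AT2-PBS means were only 0.338 to 1.18 FPKM and their Atg5-/- AT2-PBS means 4.54 to 14.002, so they were high in the same libraries as the hepatocyte markers. Accordingly, 6 of the 8 were called higher and 0 lower in Atg5-/- AT2-PBS against AT2-PBS (median 2.06; all genes 14.1% and 5.16%). With BLM in Atg5f/f cells 3 were called higher and 1 lower (median 0.76; all genes 20.6% and 7.77%), and between genotypes after BLM limma called 0 in either direction (median -0.10; all genes 2.04% and 3.12%).

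The HDL particle carries Pon1 in blood, and 20 of its proteins, receptors and transfer factors were listed. Of these, 19 passed the filter and 1 (Apoa2) is also among the hepatocyte markers. In Atg5-/- cells 1 rose and 8 fell with BLM (median -1.31), against 7.66% and 10.7% of all genes. Of those called, the 4 with the largest falls were Abcg1, a cholesterol exporter abundant in alveolar macrophages, from 39.3 ± 7.91 to 2.97 ± 1.93 FPKM (log2 change -3.48, limma adjusted p = 0.000394), Pltp, the phospholipid transfer protein, from 22.9 ± 1.45 to 3.29 ± 1.93 FPKM (-2.60, limma adjusted p = 0.00242), and the acute-phase genes Saa1 (-2.16, limma adjusted p = 0.196) and Saa2 (-2.13, limma adjusted p = 0.176). The calls of Saa1 and Saa2 were lost in 8 and 7 of 21 other settings. Unlike Pon1, all 4 had low AT2-PBS means, of 0.847 to 3.31 FPKM. Apoe, the most abundant of the list, had 1312 ± 89.7 and 969 ± 155 FPKM (-0.45, limma adjusted p = 0.547). Clu, the chaperone clusterin that travels with Pon1 on HDL, was the one that rose, from 244 ± 11.3 to 552 ± 11.7 FPKM (1.17, limma adjusted p = 0.0438). Against AT2-PBS, 13 of the 19 were called higher and 1 lower in Atg5-/- AT2-PBS (median 3.04, against 14.1% and 5.16% of all genes), and with BLM in Atg5f/f cells 9 were called higher and 2 lower (median 1.198, against 20.6% and 7.77%). Between genotypes after BLM limma called 0 in either direction (median 0.07), against 2.04% higher and 3.12% lower of all genes. This count is near those shares and is no result about the list. The summed markers of hepatocytes and macrophages were also highest in Atg5-/- AT2-PBS. With BLM in Atg5f/f cells their medians were higher but their ranges overlapped. Hepatocyte sums were 3.84 to 503 FPKM in AT2-PBS and 268 to 780 in AT2-BLM, and macrophage sums 8.44 to 29.6 and 25.7 to 58.4. The part of these cells in the counts was not tested.

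Transcription factors reported to act on paraoxonase genes were followed as a further list. Of 16, 13 passed the filter (Ppara and Ppard only through the Atg5-/- AT2-PBS libraries), and in Atg5-/- cells 2 rose and 1 fell with BLM (median -0.05). These counts are near the shares of all genes, 7.66% higher and 10.7% lower, and are no result about the list. Nfe2l2, the master regulator of the antioxidant response, rose from 86.1 ± 18.0 to 134 ± 12.1 FPKM (log2 change 0.65, limma adjusted p = 0.180), and Ahr, the aryl hydrocarbon receptor, from 2.11 ± 0.65 to 3.73 ± 0.73 FPKM (0.62, limma adjusted p = 0.225), but these calls were lost in 7 and 12 of 21 other settings. Pparg, a lipid-sensing nuclear receptor high in alveolar macrophages, fell from 4.28 ± 0.98 to 1.19 ± 0.21 FPKM (-1.26, limma adjusted p = 0.0144), with the macrophage markers. Jun, the most abundant, had 312 ± 199 and 142 ± 117 FPKM and was not called (-1.26, limma adjusted p = 0.230). In the other comparisons 1 was called higher and 1 lower with PBS between genotypes (median 0.12, against 14.1% and 5.16% of all genes), 1 higher and 0 lower after BLM (median -0.03, against 2.04% and 3.12%), and 2 higher and 2 lower with BLM in Atg5f/f cells (median -0.06, against 20.6% and 7.77%).

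Of 8 target genes of the aryl hydrocarbon receptor, a receptor that can induce Pon1, 5 passed the filter. In Atg5-/- cells 0 rose and 2 fell with BLM (median -0.57, against 7.66% and 10.7% of all genes), namely the monooxygenase Cyp1a2, from 6.21 ± 2.68 to 1.19 ± 0.96 FPKM (log2 change -1.74, limma adjusted p = 0.0406), and the aldehyde dehydrogenase Aldh3a1, from 22.2 ± 3.34 to 7.76 ± 1.99 FPKM (-1.43, limma adjusted p = 0.0647). Cyp1a2 read 2.55, 0 and 0 FPKM in AT2-PBS replicates 1, 2 and 3, where hepatocyte markers summed to 503, 7.04 and 3.84 FPKM. It reached 3.98 to 9.18 FPKM in Atg5-/- AT2-PBS, the libraries with the highest sums of hepatocyte and club cell markers. Aldh3a1 was also higher there (18.7 to 25.4 FPKM) than in AT2-PBS (7.50 to 9.36). The part of other cells in these 2 falls was not tested. Ugt1a6a, the glucuronosyltransferase with the highest level of the list, spread from 9.12 to 42.3 FPKM within Atg5-/- AT2-PBS and was not called (-0.10, limma adjusted p = 0.953). Between genotypes 3 were called higher and 0 lower with PBS (median 1.29, against 14.1% and 5.16% of all genes) and 0 higher and 1 lower after BLM (median -0.46, against 2.04% and 3.12%), while with BLM in Atg5f/f cells 1 was called higher and 0 lower (median 0.34, against 20.6% and 7.77%).

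The genes whose profile over the 12 libraries was most like that of each member were taken by Pearson's r of log2(FPKM + 1), as a description over 4 groups that share libraries. For Pon1 these were Mgll, the lipase that ends endocannabinoid signals (r = 0.968), the growth factor receptor Fgfr3 (0.965), the ADP-ribose hydrolase Macrod1 (0.964), Fam46a (0.964) and Arhgef38 (0.962). Mgll averaged 12.2 FPKM in AT2-PBS, 10.1 in Atg5-/- AT2-PBS, 4.12 in Atg5-/- AT2-BLM and 2.35 in AT2-BLM, the same order of groups as Pon1 with a narrower span. For Pon3 they were Rsrp1 (r = 0.965), Cdc42ep3 (0.947), the diacylglycerol kinase Dgkg (0.943), the Wnt-inactivating hydrolase Notum (0.929) and Cracr2b (0.927), and Rsrp1 averaged 386 FPKM in AT2-PBS and 113 in AT2-BLM. For Pon2, which varied least, the highest values were lower, with Amer1 at 0.888, Rap1gap at 0.880, Impdh1, an enzyme of guanine nucleotide synthesis, at 0.878, Cnppd1 at 0.878 and Slc36a4 at 0.871.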

How the data were processed

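RNA of sorted AT2 cells was sequenced as stranded poly(A) libraries. The authors deposited FPKM values per gene, made with Cufflinks on mm9. The methods name STAR as aligner and a DESeq normalization, which may or may not be in the FPKM, while the submitters' processing notes name Trimmomatic 0.36, HISAT2 2.2.1.0, Cufflinks 2.2.1 and HTSeq 0.9.1. FPKM of a library summed to 390141 to 549169. Read depth is unknown, so no counting intervals are given. From the steps of low values, 8 of 11 libraries had 1.01 to 1.16 times the depth of AT2-PBS replicate 1, and the other 3 gave no clear step.

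Values were tested as log2(FPKM + 1) with limma 3.58.1 (R 4.3.3; lmFit, and eBayes with a mean-variance trend), with all 12 samples in 1 fit of the 10675 genes that reached FPKM 1 in 3 or more libraries. Fold changes on this scale understate those of low genes. A call needed a raw p below 0.05 together with a 1.4-fold change (the criterion of the methods), and Benjamini-Hochberg adjusted p-values over all genes are given beside it. Single ratios were compared by exact permutation (scipy 1.17.1). The fit was tested on simulated data. Genes named were the members, the 5 most like each, and per list the called ones (up to 4 by size of change in Atg5-/- cells) with the most abundant. Further list members (Clu, Ppp1r9a, Sgce, Casd1) were named after their values were seen. The members and lists were chosen with earlier results of these data known. Gene positions come from GENCODE M1 (NCBIM37), promoters from RefSeq (GRCm38.p6), in which all 3 members were matched. AT2-PBS replicate 3 is numbered 4 in another label. Alternatives were another pseudocount, no filter, 3 other scalings, other fits and leaving out each library.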

Additional observations from a re-analysis of the deposited data

How the results depend on the processing

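The fall of Pon1 in Atg5-/- AT2-BLM was called in all 20 other settings, with log2 changes of -3.05 to -2.08 and limma adjusted p of 0.000808 to 0.0236. Many of these settings could not move the estimate. Leaving out an AT2-PBS or AT2-BLM library, or changing only the filter or the fit, kept it at -2.48 and altered only its error. When each library was left out in turn, the change with BLM in Atg5-/- cells ranged from -3.05 to -2.08 for Pon1, -0.13 to 0.04 for Pon2 and -0.44 to -0.17 for Pon3. The difference between genotypes with PBS ranged from -1.12 to -0.56, -0.20 to -0.03 and -0.38 to -0.12, that after BLM from 0.27 to 1.23, -0.17 to 0.18 and 0.14 to 0.41, and the change with BLM in Atg5f/f cells from -4.43 to -3.87, -0.34 to 0.00402 and -0.96 to -0.70, in the same order. Pon2 turned sign, uncalled, without Atg5-/- AT2-PBS replicate 3 (0.033) or Atg5-/- AT2-BLM replicate 2 (0.043) in Atg5-/- cells, and after BLM between genotypes with replicate 3 of AT2-BLM (0.18) or replicate 2 of Atg5-/- AT2-BLM (0.046) left out, with quantile normalization (0.064) and with median-ratio scaling (0.00385). Ugt1a6a, which ranged from -0.65 to 0.57 as libraries were left out, turned without Atg5-/- AT2-PBS replicate 3 (0.40) or Atg5-/- AT2-BLM replicate 2 (0.57). Scaling to Cdh1, an epithelial transcript that itself varied, moved the median of all genes in Atg5-/- cells from 0.06 to -0.32, and Pon2 (-0.51) and Pon3 (-0.74) were then called. It also turned Pon2 (0.28) and Pon3 (0.12) between genotypes with PBS and Pon2 (0.12) after BLM. Pon3 with BLM in Atg5f/f cells moved to -1.09 with quantile normalization and with scaling to Cdh1.

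Counts over all genes depended on scaling. Called higher and lower were 818 and 1144 with BLM in Atg5-/- cells, against 1148 and 1069 with quantile normalization, 604 and 1263 with median-ratio scaling and 118 and 2444 with scaling to Cdh1. With BLM in Atg5f/f cells they were 2202 and 829, against 1235 and 1398, 1467 and 1303, and 986 and 1288. Between genotypes with PBS they were 1507 and 551, against 1177 and 1587, 1445 and 711, and 2731 and 79, and after BLM 218 and 333, against 253 and 272, 268 and 261, and 355 and 90. Replicate numbers did not pair the libraries (correlation of the deviations of libraries with the same number 0.00357, 0.227 and 0.0834 in Atg5-/- cells), and a fit with the replicate block gave Pon1 -2.48 (limma adjusted p = 0.0106) and changed no call of a member. Of the 5 genes most like each member, 2 or 3 remained for Pon1, 1 to 5 for Pon2 and 1 to 4 for Pon3 under 4 other scalings or pseudocounts. Read depth is unknown, which limits what can be said of Pon1 in BLM libraries near 1 FPKM.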
